A study of Macaca mulatta with 24 samples.

Results

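LCN2, LCN15, DEFB2L, LYZ, PLA2G2A, REG3G and PIGR, 7 genes of antimicrobial and lipocalin defence, were followed in the jejunum of rhesus macaques after total-body irradiation (TBI). The genes were chosen by name, with measured values of these same arrays in view. Every probe carrying one of these symbols in the authors' normalized table was taken, which gave 9 probes of 6 genes among the 43603 probes and 16058 named genes of the array. No probe carried the symbol REG3G. A further 3 probes, listed in the table as LOC711637, were read as REG3G because their gene ID is that of REG3G in the RefSeq table for assembly T2T-MMU8v2.0. All 12 probes passed the filter on dim signals, and the probes of a gene were kept apart because those of LCN2 and REG3G disagreed.

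The study used young adult male rhesus macaques exposed to cobalt-60 gamma rays at 6.7 Gy or 7.4 Gy and sampled on day 4, day 7 or day 12, beside unirradiated animals. There were 4 control arrays, 4 arrays for each dose on day 4, 4 for each dose on day 7 and 2 for each dose on day 12, each of 1 animal's jejunum. No drug or genetic change separated the groups. The controls carry the label of day 4 and served for every day, and 1 of the labels' protocols gives 21 days in place of day 12, whereas titles and characteristics give 12. RNA came from whole pieces of gut, so fewer cells of a type and less RNA per cell cannot be told apart.

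The intestine keeps bacteria off its surface with several secreted layers. Paneth cells at the crypt base release alpha-defensins, lysozyme (LYZ) and secretory phospholipase A2 (PLA2G2A), which attack bacterial walls and membranes. Epithelial cells add C-type lectins such as REG3G, beta-defensins, which in the gut are often induced by inflammation, and LCN2, a lipocalin that withholds iron by binding bacterial siderophores, while PIGR carries polymeric IgA from plasma cells across the epithelium into the lumen.

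A level is given below as log2 of the signal over the 75th percentile of its array, and a change is a difference of mean levels between groups ± SE. A probe was called at a limma p, adjusted by the Benjamini-Hochberg method over 28171 tested probes, below 0.05 together with a change of at least 2-fold. Members were chosen with results known, so calls of members are given as descriptions and without p-values, except where the doses are compared directly. The related gene lists were also chosen with earlier results of these data known. Adjusted p-values of their genes therefore describe these arrays and are not independent tests. Levels were not set against each other between probes, which bind with different strength.

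The arrays lay on 6 slides, and between 39.4% and 87.7% of the probes of an array were well above background. Slide 5 had the highest floor. Its lowest detected signal was between 130 and 277 on its 4 arrays, against 7.03 to 83.0 elsewhere. Slides 5 and 6 held no control array and were scanned on another day than slides 1 to 4, which held all the controls. Slide 5 carried 7.4 Gy day 12 replicate 1, an array that stood apart for DEFB2L and PLA2G2A. All control arrays sat at position 1 of their slides, all day 4 arrays of 7.4 Gy at position 2 and every array of day 7 and day 12 at position 3 or 4, so position cannot be told apart from group when these are compared with control, or the later days with day 4. On day 4 after 6.7 Gy replicates 1 and 2 sat at position 1 and replicates 3 and 4 at position 2, and these pairs also differed in slide and scan. Any value against control with position as a block rests on that split, and for 7.4 Gy it is borrowed from it. The absorptive enterocyte genes RBP2, FABP2, LCT, ANPEP, VIL1 and TREH all passed the filter, and the Paneth cell defensin DEFA6 was well above background on all 24 arrays, at 6.72 to 8.69. These genes mark small bowel and do not tell jejunum from ileum, and genes of more distal small bowel were higher in some irradiated groups, as given at the end.

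On day 4 LCN15 and 1 of the 2 LCN2 probes were higher than in controls at both doses, and PIGR was lower after 6.7 Gy. After 6.7-Gy TBI, 3 of the 12 member probes were called, against 1.98% of all tested probes. These were LCN15, which was 4.07 ± 0.58 higher with 3 of 4 controls well above background, 1 LCN2 probe, which was 3.53 ± 0.67 higher, and PIGR, which was lower with a change of -1.48 ± 0.31. After 7.4-Gy TBI, 2 of the 12 were called, against 2.6% of all tested probes, LCN15 at 4.67 ± 0.45 and the same LCN2 probe at 3.10 ± 0.59. Nothing is read from these counts, since the members were chosen by such values. No member probe was called against control on day 7 (background 0.0639% after 6.7 Gy and 0.288% after 7.4 Gy) or on day 12 (background 0.0071% and 0.00355%). At an unadjusted p under 0.05 with a 2-fold change, limma counted 2 and 2 member probes on day 7. On day 12 it counted 0 and 1. Among all 28171 tested probes, 440 and 836 passed that threshold on day 7 and 515 and 718 on day 12. The methods' t-test with adjustment called 0 member probes in each of these comparisons. Levels did not overlap with control on day 4 for 3 and 4 of the 12 probes, beside 14.3% and 17.4% of all tested probes. The median change over the 12 probes on day 4 was 0.67 after 6.7 Gy and 0.54 after 7.4 Gy, where the medians over all tested probes were -0.06 and -0.08.

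**Figure D1:**
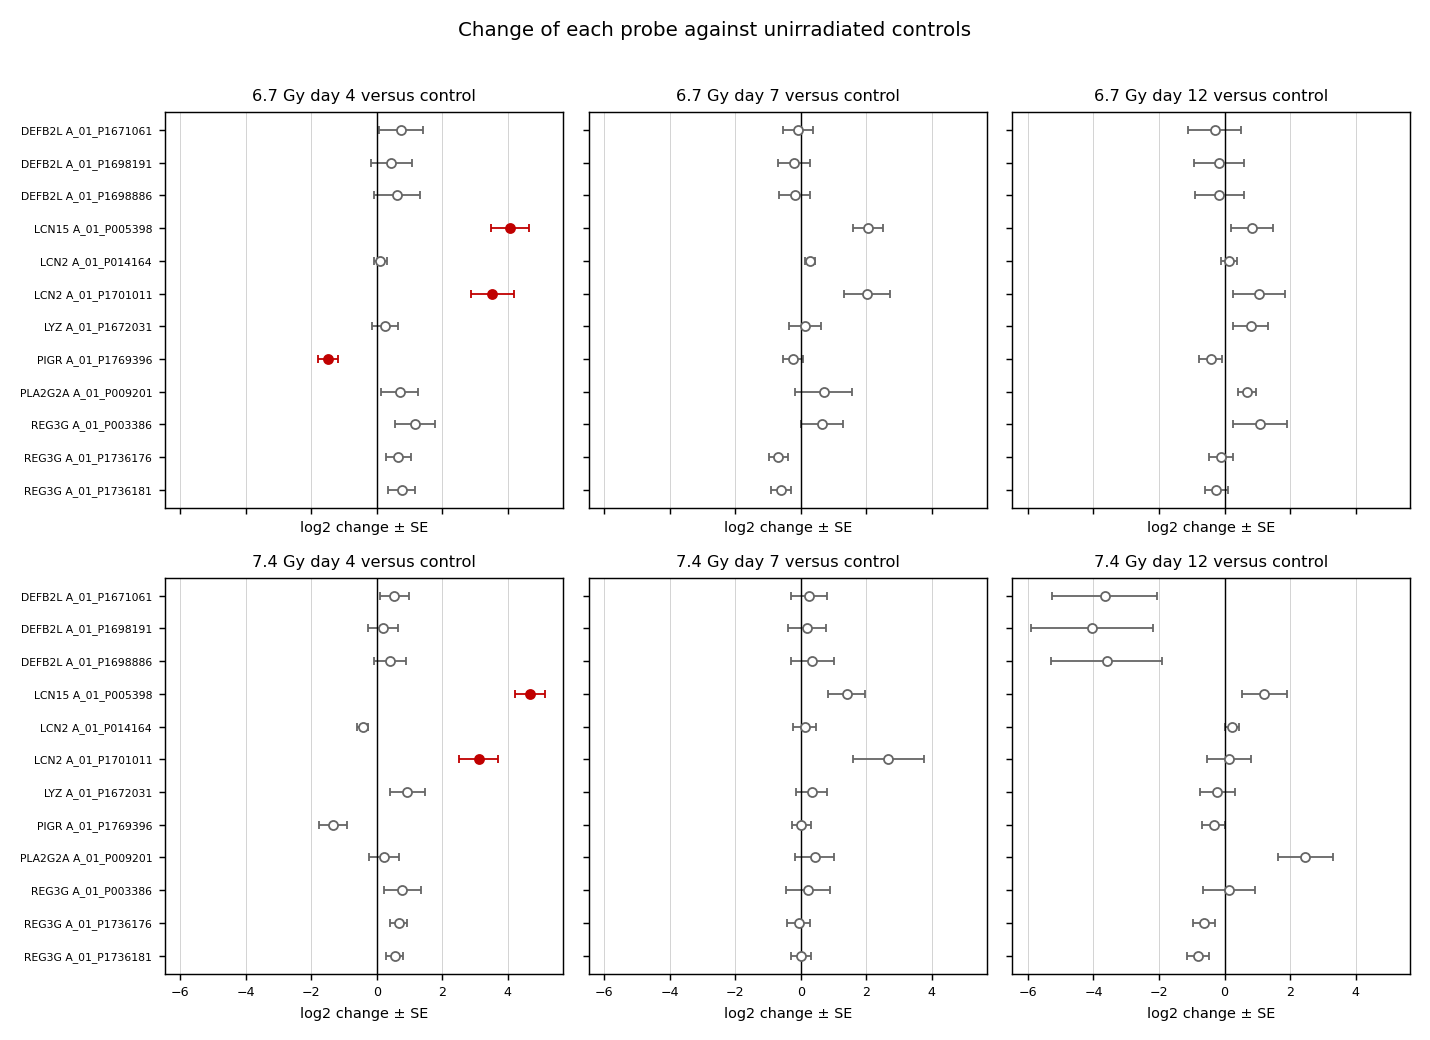
Change of each of the 12 probes against the 4 controls, in log2 units on the horizontal axis, for 6.7-Gy TBI (top row) and 7.4-Gy TBI (bottom row) on days 4, 7 and 12. Points are differences of group means, bars are ± SE, and filled points are called. The filled points all lie on day 4, and the 3 DEFB2L probes lie at -3.60 to -4.06 after 7.4 Gy on day 12 with wide bars.

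LCN15, a lipocalin for which little is established about what it binds, was called higher on day 4 at both doses. The probe read -3.42, -3.86, -5.55 and -3.28 in the 4 controls, the last of which was not well above background. On day 4 it read 0.61, -1.29, 0.14 and 0.72 after 6.7-Gy TBI and 0.70, 0.86, 0.71 and 0.31 after 7.4-Gy TBI. All 8 irradiated arrays lay above all 4 controls. The probe passed the filter on dim signals through the groups of day 4 and the 6.7-Gy group of day 7, where it was high, and 3 of the 4 control arrays were well above background.

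On day 7 LCN15 had moved back toward control. After 6.7 Gy it read -2.49, -1.49, -2.01 and -1.90, still above every control, with a change of 2.05 ± 0.47 that was not called. Groups did not overlap for 7.15% of all tested probes in that comparison, and for 1 of the 12 member probes. These arrays shared slides 1 to 4 with the controls, and the differences within slides were 0.92, 2.36, 3.53 and 1.38. After 7.4 Gy it read -2.48 (not well above background), -1.53, -2.88 and -3.61, and the last of these lay within the control range. The day 12 levels of -2.73 and -3.63 after 6.7 Gy and of -3.46 and -2.16 after 7.4 Gy overlapped with control, and at each dose 1 of the 2 arrays was not well above background.

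The size of the LCN15 change depends on how low signals are treated. With all signals raised to the highest floor found on any array, the day 4 changes were 1.89 and 2.49, and only the second was called. No single array carried the calls, since without each array in turn the change stayed at 3.56 to 4.51 after 6.7 Gy and 4.16 to 4.92 after 7.4 Gy and was called each time. Within slides that held a control and a day 4 array, the differences came to 3.55 and 4.58 after 6.7 Gy and 6.25 and 4.14 after 7.4 Gy. With slide as a block the changes were 4.07 and 5.19, and neither was called. With position on the slide as a block the change after 6.7 Gy was 3.68 and was called. The value after 7.4 Gy in that fit, 3.90 and not called, is borrowed from the split of the 6.7-Gy arrays.

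The 2 probes of LCN2 told different stories. Probe A_01_P1701011 read -2.61, -4.71, -3.14 and -2.58 in control, then -1.32, -0.06, 1.59 and 0.85 on day 4 after 6.7 Gy and 0.16, -1.40, -0.36 and 0.98 on day 4 after 7.4 Gy. Every day 4 array lay above every control, by a mean of 11.5-fold and 8.60-fold. Probe A_01_P014164 read 4.02, 3.46, 3.72 and 3.99 in control, 3.62, 3.73, 4.29 and 3.97 on day 4 after 6.7 Gy and 3.30, 3.19, 3.59 and 3.35 on day 4 after 7.4 Gy. Its changes on day 4 were 0.11 ± 0.20 and -0.44 ± 0.17, and over all 24 arrays it stayed between 3.19 and 5.06.

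Across the 24 arrays the levels of the LCN2 probes correlated at r = 0.22, given as a description of arrays that share slides and animals' state. The probe that moved derives from transcript JV045470, and for the other the table lists no accession, so which part of LCN2 each reads was not analysed here. On 1 array both were at their highest, 7.4 Gy day 7 replicate 2, where A_01_P1701011 reached 2.47 and A_01_P014164 reached 5.06.

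After day 4 the LCN2 probe A_01_P1701011 spread widely within groups. On day 7 it read -3.27, -0.84, -0.43 and -0.39 after 6.7 Gy and -2.83 (not well above background), 2.47, -2.17 and 0.19 after 7.4 Gy. At each dose the 3 higher arrays lay above all controls and the lowest lay inside their range, with changes of 2.03 ± 0.70 and 2.68 ± 1.07 that were not called. The day 12 levels were -3.36 and -1.06 after 6.7 Gy and -2.49 (not well above background) and -3.77 after 7.4 Gy, and they overlapped with control.

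The day 4 call of this LCN2 probe, unlike that of LCN15, was lost without some single arrays. After 6.7 Gy it was lost without control replicate 1, 2 or 3 or without irradiated replicate 2, 3 or 4, with changes of 3.04 to 3.74, and after 7.4 Gy without control replicate 1, 2 or 3 or irradiated replicate 1, with changes of 2.62 to 3.32. With position on the slide as a block the changes were 2.57 and, borrowed from the split of the 6.7-Gy arrays, 1.19, with slide as a block 4.88 and 2.24 and with the common floor 2.11 and 1.69, and none of these was called. With scan day as a block the change after 7.4 Gy was 2.64 and was not called, nor was it called at 3.10 ± 0.97 in 1 model of all arrays. Within slides the differences came to 4.20 and 5.56 after 6.7 Gy and 3.30 and 1.18 after 7.4 Gy. Neutrophils also store LCN2, so their genes were read beside it. Of 12 neutrophil markers, 6 were on the array and 4 were tested, none was called against control in any group, and their summed level ran from -0.51 to -0.08 in control, from -0.54 to 0.56 on day 4 after 6.7 Gy and from -0.18 to -0.05 on day 4 after 7.4 Gy. Their part in the LCN2 result was not tested.

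**Figure D2:**
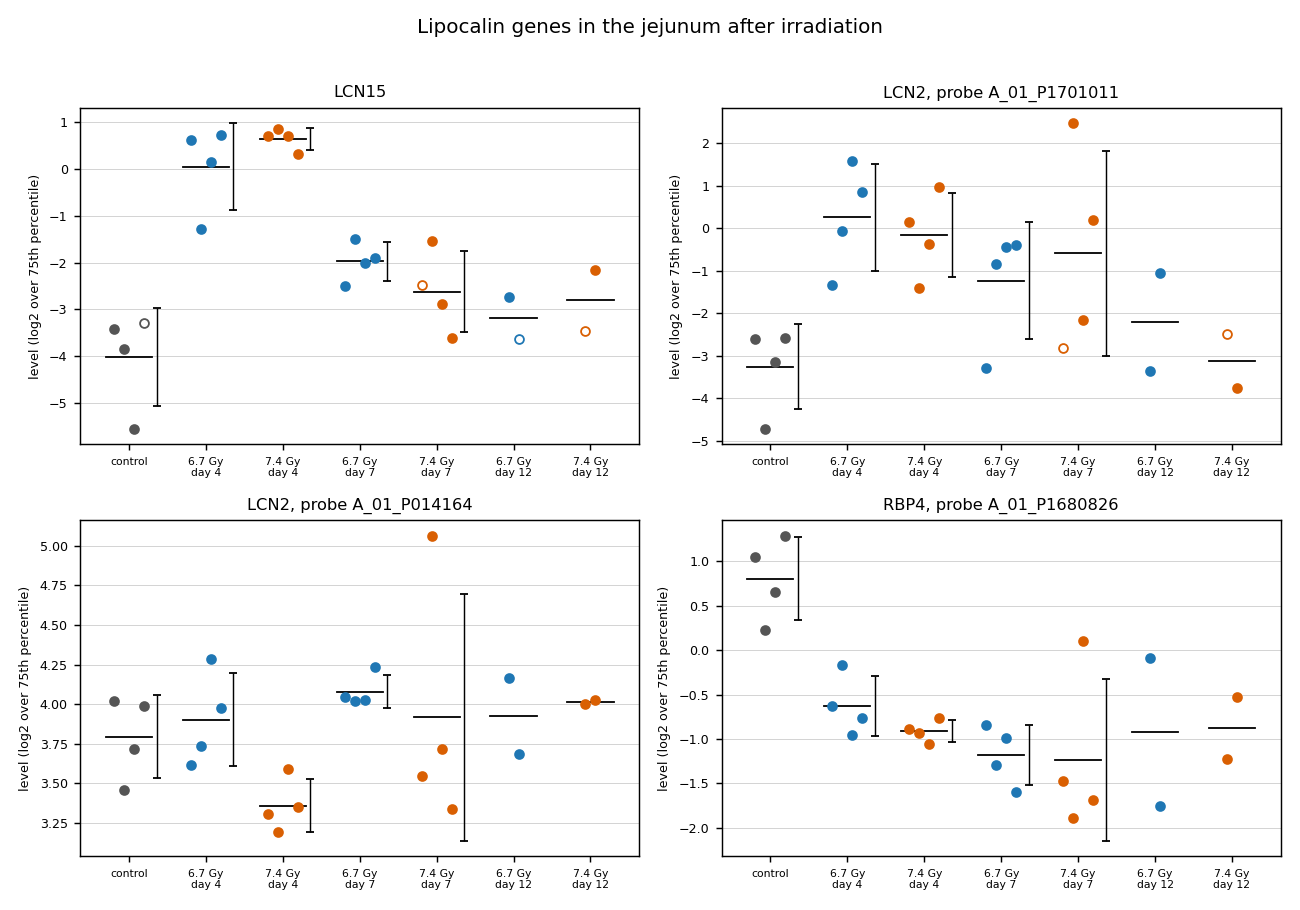
Levels of LCN15, both LCN2 probes and RBP4 on each array (log2 of the signal over the array's 75th percentile), by group. Filled points are well above background and open points are not, lines are group means, and bars beside groups of 4 are ± SD. The group means of LCN15 and of the LCN2 probe A_01_P1701011 are highest on day 4, though the highest single array of that LCN2 probe is one of day 7 at 2.47, the second LCN2 probe stays between 3.19 and 5.06, and RBP4 falls on day 4.

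RBP4, the plasma carrier of retinol and a member of the wider lipocalin family, went the other way, and 3 of its probes were called. Probe A_01_P1680826 read 1.05, 0.23, 0.66 and 1.29 in control, -0.63, -0.17, -0.95 and -0.76 on day 4 after 6.7 Gy and -0.89, -0.94, -1.06 and -0.76 on day 4 after 7.4 Gy. No irradiated array reached the lowest control. The changes were -1.43 ± 0.26 (limma adjusted p = 0.0248) and -1.72 ± 0.23 (limma adjusted p = 0.00971), and those of the other 2 called probes ran from -1.47 to -1.65. The first of these calls was lost without control replicate 1 or 3 or irradiated replicate 3 or 4, with changes of -1.33 to -1.48. That of probe A_01_P000418 after 7.4 Gy was lost without irradiated replicate 1, with a change of -1.61. None of the day 4 RBP4 calls was kept without a filter or with slide or position as a block. On day 7 after 6.7 Gy, 2 RBP4 probes remained lower, at -1.99 and -2.10, and without single arrays those calls were lost in 8 of 8 and 7 of 8 refits, with changes of -1.83 to -2.18 and -1.97 to -2.14. Of 12 lipocalin genes on the array besides the members, 8 were tested through 12 probes, and RBP4 supplied every call, 3 lower on day 4 at each dose and 2 lower on day 7 after 6.7 Gy.

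PIGR, the receptor that moves IgA into the lumen, was lower on day 4 after 6.7 Gy. It read 0.10, -0.17, 0.82 and 0.91 in control and -1.38, -1.51, -0.86 and -0.54 on day 4 after 6.7 Gy, so that all irradiated arrays lay below all controls. After 7.4 Gy the day 4 levels were -1.48, -1.17, -1.35 and 0.31, with 3 arrays below all controls and replicate 4 among them. The change there, -1.33 ± 0.42, was not called.

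By day 7 PIGR overlapped with control. It read 0.51, 0.64, -0.36 and -0.07 after 6.7 Gy and 0.31, 0.86, 0.55 and -0.02 after 7.4 Gy. On day 12 it read -0.13 and 0.11 after 6.7 Gy and 0.32 and -0.16 after 7.4 Gy. Only 1 of these 12 arrays, 6.7 Gy day 7 replicate 3, lay below the lowest control. The call on day 4 after 6.7 Gy did not survive the omission of any 1 of its 8 arrays, and the change then ran from -1.32 to -1.68. With slide, scan day or position as a block the change was -0.66, -1.11 or -1.86 and was not called, and within the slides that held both groups the differences were -0.95 and -0.37 after 6.7 Gy, and they were -2.30 and -2.07 after 7.4 Gy.

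Genes around PIGR were read from the list for mucus, IgA and the epithelial oxidases, of which 19 genes were tested through 25 probes. MZB1, a chaperone of antibody-secreting cells, was the only call, and it was lower on day 4 at both doses. It read 1.97, 1.14, 1.46 and 2.67 in control, -0.64, 0.07, 0.48 and 0.47 on day 4 after 6.7 Gy and -0.27, -0.59, 0.63 and 0.11 on day 4 after 7.4 Gy, and these groups did not overlap with control. The changes were -1.71 ± 0.37 (limma adjusted p = 0.0412) and -1.84 ± 0.37 (limma adjusted p = 0.0290). Without single arrays the first call was lost in 8 of 8 refits, with changes of -1.42 to -1.94. The second was lost without control replicate 1 or 3 or irradiated replicate 1, 2 or 4, with changes of -1.65 to -1.96. Neither was kept without a filter, by the methods' t-test, with slide, scan day or replicate as a block, or with the common floor.

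Plasma cell and enterocyte markers were read beside PIGR, and some of them were called lower on day 4. The summed level of 6 plasma cell markers ran from 4.10 to 5.31 in control, from 3.96 to 4.15 on day 4 after 6.7 Gy and from 3.47 to 4.21 on day 4 after 7.4 Gy, with MZB1 the only one called. The 6 enterocyte markers summed to 8.55 to 8.83 in control, to 7.83 to 8.20 and to 7.66 to 8.36, and RBP2, a cellular retinol carrier of enterocytes, was lower at -1.50 and -1.44, with VIL1 and TREH also lower after 6.7 Gy. On day 7 none of these was called, but MZB1 lay below all controls at both doses, with changes of -1.87 ± 0.30 and -1.34 ± 0.34. TREH did so too, with -1.13 ± 0.23 and -1.81 ± 0.35. RBP2 lay below all controls after 7.4 Gy alone, with -0.63 ± 0.25, and VIL1 overlapped with control at both doses. Groups did not overlap for 7.15% and 11.3% of all tested probes in these comparisons. The day 7 sums ran from 3.29 to 4.50 and from 3.23 to 4.40 for the plasma cell markers and from 7.52 to 8.59 and from 7.26 to 8.40 for the enterocyte markers. Their part in the PIGR result was not tested. Over the 24 arrays the named genes with levels most like PIGR were TNFSF13, a plasma cell survival factor, at r = 0.90, NDUFB10 at r = 0.87 and FXYD3 at r = 0.87, and these correlations describe arrays that share slides.

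REG3G, a lectin that kills Gram-positive bacteria, was not called against control on any day, and 2 of its 3 probes were lower on day 7 than on day 4 after 6.7 Gy. Probe A_01_P1736181 read 3.64, 2.91, 4.07 and 3.96 in control, 5.12, 3.22, 4.58 and 4.68 on day 4 after 6.7 Gy and 4.28, 4.14, 4.22 and 4.10 on day 4 after 7.4 Gy. The 4 arrays of the 7.4-Gy group lay above all controls by a small margin, with a change of 0.54 ± 0.24, and neither dose was called. Probe A_01_P1736176 had changes of 0.65 ± 0.38 and 0.66 ± 0.25 on day 4, also not called.

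On day 7 after 6.7 Gy the REG3G probe A_01_P1736181 read 3.44, 2.90, 2.50 and 3.33, and on day 7 after 7.4 Gy it read 3.88, 3.50, 3.06 and 4.15. Day 12 gave 3.18 and 3.61 after 6.7 Gy and 2.81 and 2.89 after 7.4 Gy. The pair of 7.4-Gy arrays lay below all controls, with a change of -0.80 ± 0.34 that was not called, and in that comparison the groups did not overlap for 18.0% of all tested probes.

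The third REG3G probe, A_01_P003386, did not follow the others. It read 2.01, 1.78, 2.18 and -0.66 in control, 1.51, 2.69, 2.92 and 2.83 on day 4 after 6.7 Gy, and 1.90, 2.23, 2.31 and 1.97 on day 4 after 7.4 Gy. Over 24 arrays A_01_P1736181 and A_01_P1736176 correlated at r = 0.95, but A_01_P003386 correlated with them at r = 0.11 and r = 0.20, although all 3 are listed for transcript XM_001112492. The genes most like A_01_P1736181 were LOC716890 at r = 0.94, LOC574310 at r = 0.83 and the Paneth cell alpha-defensin DEFA6 at r = 0.82, whereas those most like A_01_P003386 were ID1, SUPT20H and UIMC1 at r = 0.68 to 0.79. Near-identical REG genes may share signal on such probes.

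The beta-defensin DEFB2L, listed as DEFB4 in the reference table, was strongly detected in controls and after irradiation, with 1 array as the exception. Probe A_01_P1698191 read 7.24, 5.32, 7.58 and 7.15 in control, 7.77, 5.56, 7.87 and 7.87 on day 4 after 6.7 Gy and 6.44, 7.28, 7.05 and 7.28 on day 4 after 7.4 Gy. On day 7 it read 6.87, 7.24, 6.08 and 6.27 after 6.7 Gy and 7.00, 7.51, 5.73 and 7.81 after 7.4 Gy. All these groups overlapped with control, and on days 4 and 7 the changes of the 3 DEFB2L probes lay between -0.21 and 0.74.

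On day 12 probe A_01_P1698191 read 5.62 and 7.69 after 6.7 Gy and -0.97 and 6.50 after 7.4 Gy. The first 7.4-Gy array was thus 6.29 below the lowest of the other 23 arrays, with a background-corrected signal of 418 where no other array was under 38261. The other probes fell on the same array, A_01_P1671061 to -1.23 and A_01_P1698886 to -2.51, where it was not well above background, against lowest values of 4.06 and 3.01 elsewhere. Among 16476 probes well above background on all other 23 arrays, these 3 DEFB2L probes were the 3 farthest below the rest on that array, with gaps of 6.29, 5.52 and 5.30, ahead of 2 probes without a symbol at 4.46 and 3.09 and VMO1 at 1.89.

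Other defensins did not share that drop. DEFA6 read 7.61 on the same array and 7.41 on the other 7.4 Gy day 12 array, and the alpha-defensin DEFA4 read 6.75 and 7.75 by 1 probe and 7.72 and 7.89 by the second. A probe listed as DEFB4A read -1.25 and -1.01 there and between -1.33 and -0.02 over all 24 arrays. The array belonged to slide 5, whose other arrays read 7.77, 7.05 and 7.00 for DEFB2L probe A_01_P1698191, and the part of the slide in the drop was not tested.

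The DEFB2L group means on day 12 after 7.4 Gy rest on this array. The changes against control were -3.60 to -4.06 with SE of 1.61 to 1.86, none was called, and the second array lay within the control range for all 3 probes. Against day 4 at the same dose, probe A_01_P1671061 was called at -4.19. Without 7.4 Gy day 12 replicate 1 that change was -1.0 and was not called, and the call was also lost without any 1 of the 4 arrays of day 4 and, at -3.92, with normexp background correction.

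Apart from that array, DEFB2L varied together with some Paneth cell genes and not with others. The 3 DEFB2L probes correlated with each other at r = 0.96 to 0.98 over the other 23 arrays, and with DEFA6 at r = 0.80 to 0.82. With LYZ they correlated at r = -0.07 to -0.02 and with PLA2G2A at r = 0.03 to 0.06, while MMP7, at r = 0.41 to 0.51, was well above background on 3 arrays alone. The other genes most like them over those arrays were PRSS2, the Paneth cell trypsin, at r = 0.80 to 0.85, PRSS1 at r = 0.81 for 2 of the probes and LOC574310 at r = 0.76 for the third. With all 24 arrays the correlation of DEFB2L with DEFA6 was r = 0.43 to 0.50, and the genes most like its 2 probes detected on every array became SLTM and RAPGEF2 at r = 0.73 to 0.80. Leaving that array out was a choice made after its values were seen.

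**Figure D3:**
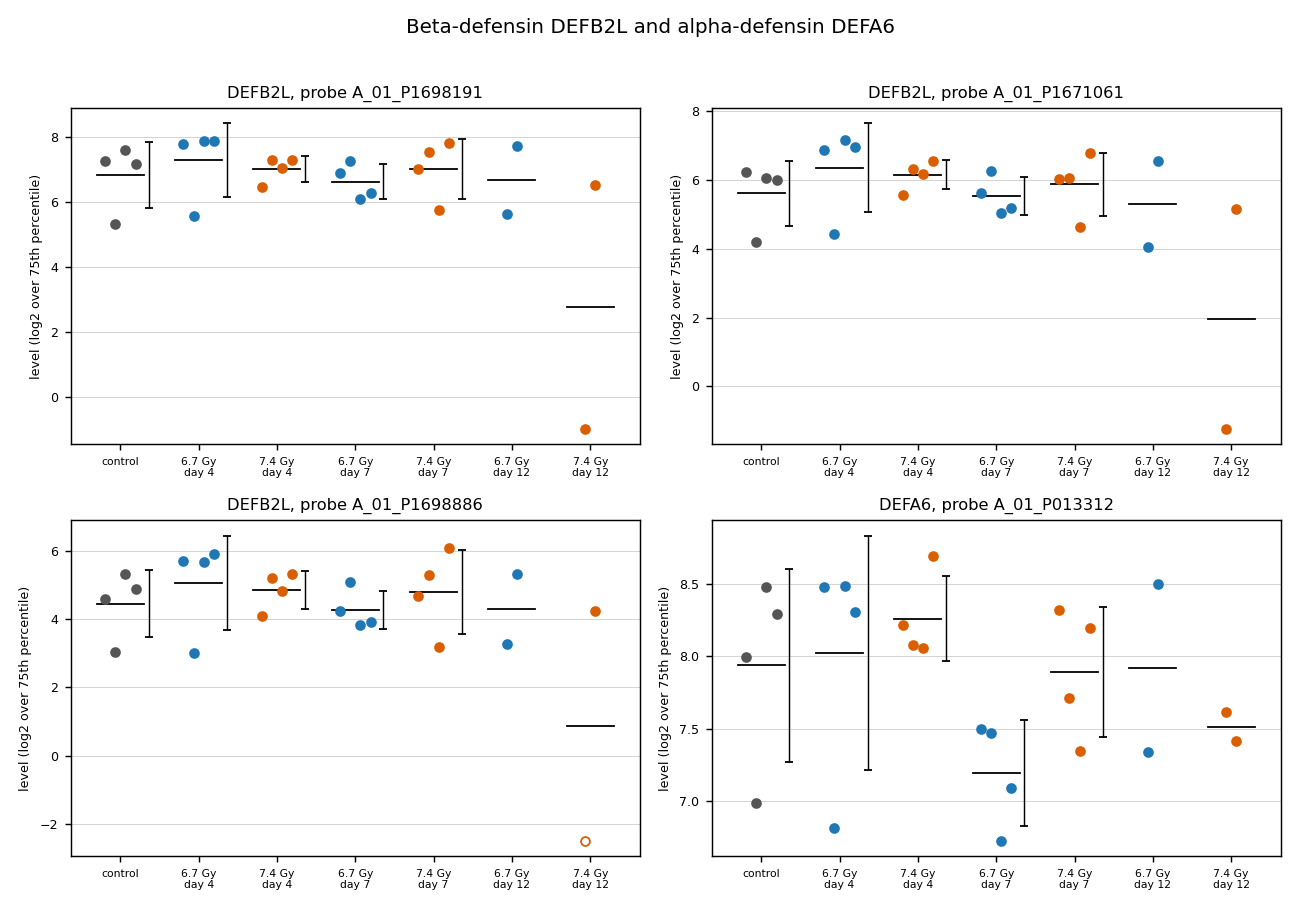
Levels of the 3 DEFB2L probes and of the Paneth cell defensin DEFA6 on each array (log2 of the signal over the array's 75th percentile), by group. Filled points are well above background and the open point is not, lines are group means, and bars beside groups of 4 are ± SD. Array 7.4 Gy day 12 replicate 1 lies far below all others for each DEFB2L probe, whereas its DEFA6 level of 7.61 is among the others.

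PLA2G2A, which hydrolyses bacterial membrane phospholipids, had single arrays with high levels. It read 1.77, 1.19, 1.05 and 1.83 in control, a narrow range, against 0.62, 3.65, 2.59 and 1.77 on day 4 after 6.7 Gy and 2.60, 0.84, 2.47 and 0.79 on day 4 after 7.4 Gy. On day 7 it read 0.46, 5.24, 1.42 and 1.55 after 6.7 Gy and 3.38, 1.38, 0.23 and 2.55 after 7.4 Gy. Day 12 gave 2.06 and 2.22 after 6.7 Gy and 5.61 and 2.23 after 7.4 Gy.

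The highest PLA2G2A level of all was on the array with the lowest DEFB2L levels, and the next highest was on 6.7 Gy day 7 replicate 2. Both day 12 groups lay above all controls, with changes of 0.68 ± 0.27 and 2.46 ± 0.84, and neither was called. Groups of 2 and 4 arrays did not overlap for 17.6% and 18.0% of all tested probes in these comparisons, beside 1 and 2 of the 12 member probes. That first 7.4 Gy day 12 array also gave the highest levels of LYPD8, at 3.21, and of the ileal bile acid transporter SLC10A2, at -0.29. The list of 6 distal small bowel markers that holds SLC10A2 did not set the 7.4 Gy day 12 group apart. Its summed level ran from 6.56 to 6.76 there, from 6.31 to 6.66 in control and from 7.25 to 7.38 on day 12 after 6.7 Gy. The other phospholipase A2 genes of the secreted family, 4 tested through 5 probes, had no call in any group against control.

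LYZ, the enzyme that cuts bacterial cell wall, overlapped with control in every irradiated group. It read 1.68, 2.42, 1.13 and 0.36 in control, 1.20, 1.65, 1.97 and 1.71 on day 4 after 6.7 Gy and 1.10, 2.23, 2.93 and 3.06 on day 4 after 7.4 Gy. Later levels ran from 0.75 to 2.51 over the 12 arrays of days 7 and 12, all within or just above the range of the controls. Its changes against control lay between -0.22 and 0.93. LYZ is made by macrophages as well as Paneth cells, and genes with levels like it included GIMAP2 at r = 0.69 and CD8A at r = 0.59.

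**Figure D4:**
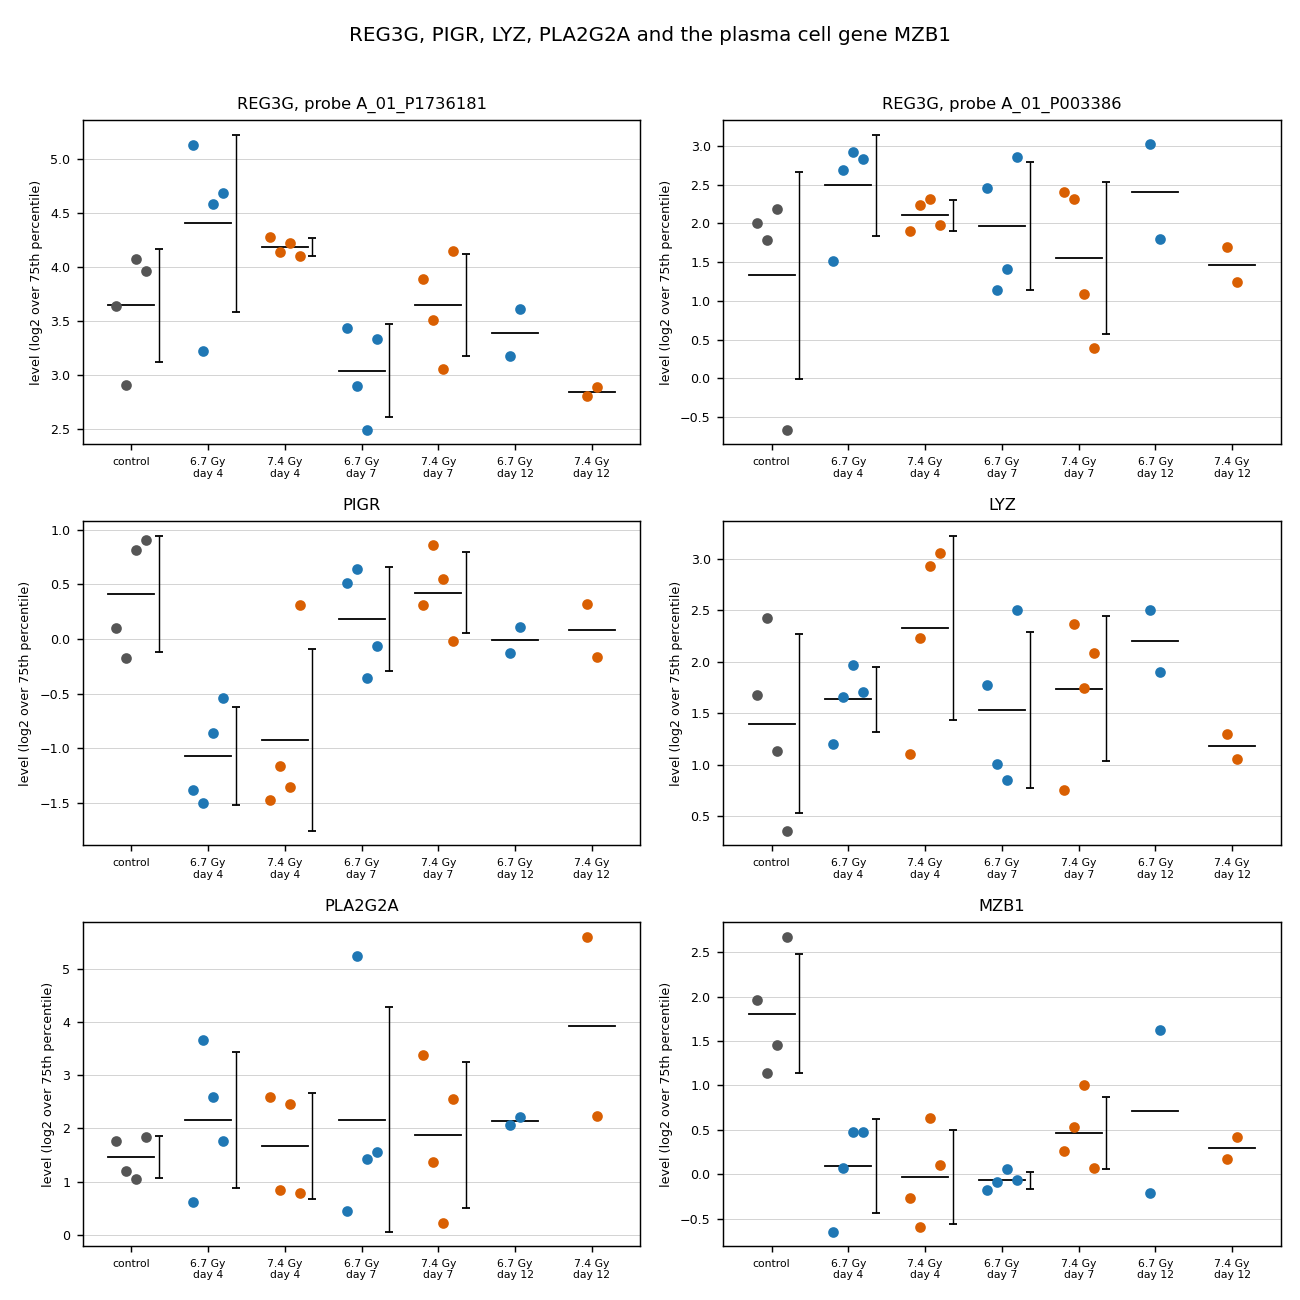
Levels of 2 REG3G probes, PIGR, LYZ, PLA2G2A and the plasma cell gene MZB1 on each array (log2 of the signal over the array's 75th percentile), by group. Lines are group means and bars beside groups of 4 are ± SD. MZB1 lies below all controls on day 4 at both doses and PIGR does so after 6.7 Gy, PIGR overlaps with control on day 7, and PLA2G2A reaches 5.24 and 5.61 on single arrays.

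The fall from day 4 to later days was compared within each dose in 1 model of all 24 arrays. These comparisons use the same day 4 arrays as the comparisons with control and are not separate evidence. From day 4 to day 7 after 6.7 Gy, 4 of 12 member probes were called, against 1.55% of all tested probes, with LCN15 at -2.02 ± 0.51, PIGR at 1.25, and REG3G probes A_01_P1736181 and A_01_P1736176 at -1.36 and -1.33. After 7.4 Gy, 2 were called, against 1.64%, with LCN15 at -3.27 and PIGR at 1.35.

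By day 12 LCN15 was lower than on day 4 at both doses, with changes of -3.23 after 6.7 Gy, the only member call against 0.951% of all probes, and -3.45 after 7.4 Gy, where the DEFB2L probe described above was the other call against 2.42%. From day 7 to day 12 no member probe was called at either dose (background 0.00355% after 6.7 Gy and 0.0248% after 7.4 Gy). Limma counted 0 and 4 member probes at an unadjusted p under 0.05 with a 2-fold change. Among all 28171 tested probes, 418 and 685 passed that threshold. The LCN15 calls between day 4 and day 12 were lost without 6.7 Gy day 12 replicate 1 (-3.68) or replicate 2 (-2.77), and without 7.4 Gy day 12 replicate 1 (-2.80). The LCN15 call between day 4 and day 7 after 7.4 Gy was kept without each array in turn, whereas the LCN15 call after 6.7 Gy was lost in 6 of 8 refits with changes of -1.79 to -2.18. The calls of PIGR were lost in 6 of 8 refits at each dose, with changes of 1.10 to 1.43 and 1.16 to 1.38, and those of the REG3G probes in 5 and 6 of 8, with changes of -1.12 to -1.33.

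The doses were compared directly on each day, and no member probe was called on day 4, day 7 or day 12 (background 0.0% each time). At an unadjusted p under 0.05 with a 2-fold change, limma counted 0, 0 and 3 member probes, the last being those of DEFB2L on day 12. Among all 28171 tested probes, 78, 207 and 531 passed that threshold on day 4, day 7 and day 12. The lowest limma adjusted p of any member was 1.00 on day 4, 0.817 on day 7 and 0.980 on day 12. For LCN15 the difference of 7.4 Gy minus 6.7 Gy on day 4 was 0.60 with a 95% interval from -0.45 to 1.66.

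Beyond the members, 158 genes of 5 related lists were read, of which 134 were on the array and 100 were tested through 135 probes. On day 4, 6 of these probes were called after 6.7 Gy, 1 higher and 5 lower, and 9 after 7.4 Gy, 4 higher and 5 lower. That is 4.44% and 6.67% beside the 1.98% and 2.6% of all probes. Nothing is read from these shares, since the lists were chosen with earlier results of these data known. RBP4 alone supplied 3 of the calls at each dose. On day 7 there were 2 calls after 6.7 Gy and 1 after 7.4 Gy. On day 12 limma called 0 at each dose, as did the methods' t-test. By limma 11 and 12 of the 135 list probes had a 2-fold change on day 12 with an unadjusted p under 0.05. Among all 28171 tested probes, 515 and 718 passed that threshold. Nothing is read from these counts either, for the same reason.

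Among 32 tested genes for antimicrobial peptides and lectins, 1 probe was higher and 1 lower on day 4 at each dose. LYPD8, which keeps flagellated bacteria off the epithelium, read 1.02, 2.01, 1.10 and 0.81 in control, -1.73, -1.61, -1.72 and 0.46 on day 4 after 6.7 Gy and -0.40, -0.92, -1.84 and -0.96 on day 4 after 7.4 Gy, with the third of the last group not well above background. Its changes were -2.39 ± 0.50 (limma adjusted p = 0.0387) and -2.27 ± 0.35 (limma adjusted p = 0.0138). No irradiated array of day 4 reached the lowest control. The higher probes were of CCL20, a chemokine with antibacterial activity, at 2.73 ± 0.55 after 6.7 Gy, where 1 control was not well above background, and of CHI3L1, a chitinase-like lectin, at 1.33 ± 0.26 after 7.4 Gy by 1 of its 2 probes, a change that turned to -0.35 with position on the slide as a block, where position and group cannot be told apart and the value is borrowed from the 6.7-Gy arrays. Without single arrays the LYPD8 call after 6.7 Gy was lost in 7 of 8 refits, with changes of -2.13 to -2.53. That of CCL20 was lost in 6 of 8, with changes of 2.50 to 2.68, and that of CHI3L1 in 5 of 8, with changes of 1.25 to 1.37. Of 11 other settings, LYPD8 was called in 1 after 6.7 Gy and 5 after 7.4 Gy, CCL20 in 4 and CHI3L1 in 3. Neither LYPD8 call was kept in 1 model of all arrays or with slide, scan day, position or replicate as a block.

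Genes that sense bacteria and drive these defences, 37 tested through 52 probes, had 3 calls on day 4 after 7.4 Gy, all higher. IL1R1, the interleukin-1 receptor, rose by 1.38 ± 0.22 (limma adjusted p = 0.0164), and CD14, the co-receptor for bacterial lipopolysaccharide, rose by 1.25 ± 0.24 (limma adjusted p = 0.0253). TLR4, the receptor that signals for lipopolysaccharide, rose by 1.15 ± 0.16 (limma adjusted p = 0.0102). The levels of IL1R1 were -2.22, -2.51, -1.53 and -2.02 in control and -0.55, -0.92, -0.45 and -0.85 on day 4 after 7.4 Gy. The CD14 call was lost in 6 of 8 refits without single arrays, with changes of 1.12 to 1.29, while those of IL1R1 and TLR4 were kept in each. None of the 3 was called without a filter or with slide, scan day, position or replicate as a block, TLR4 was not called with normexp or the common floor either, and CD14 was not called with the common floor, by the methods' t-test or without slide 5. Of 9 macrophage and monocyte markers, 6 were on the array and 5 were tested, CD14 was the only one called, and their summed level ran from 3.54 to 4.08 in control, from 3.85 to 4.47 on day 4 after 6.7 Gy and from 4.01 to 4.57 on day 4 after 7.4 Gy. Their part in these calls was not tested. On day 7 after 7.4 Gy, IL17RE was lower at -1.98 ± 0.25, with 1 array of each group not well above background, and its call was lost in 6 of 8 refits, with changes of -1.79 to -2.09.

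Markers of a more distal small bowel moved beside these results. FABP6, the ileal bile acid-binding protein, read -2.19, -1.25, -2.70 and -2.40 in control, 4.97, 4.44, 2.38 and -0.44 on day 4 after 6.7 Gy and 5.29 and 5.00 on day 12 after 6.7 Gy. After 7.4 Gy on day 4 it read 5.88, 3.12, -0.34 and 1.26. It was called higher on day 4 and day 12 after 6.7 Gy, with changes of 4.97 ± 1.04 and 7.28 ± 0.39. After 7.4 Gy the FABP6 changes were 4.61 ± 1.13 on day 4 and 3.22 ± 0.40 on day 12, and neither was called. Of the 6 markers in that list, SLC10A2 was also called after 6.7 Gy on day 4 and GUCA2A after 7.4 Gy on day 4. Their summed level ran from 6.31 to 6.66 in control, from 5.75 to 7.11 and from 6.32 to 7.30 on day 4 at the lower and the higher dose, and from 7.25 to 7.38 on day 12 after 6.7 Gy. The part of these markers in the day 4 results was not tested.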

How the data were processed

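RNA of 24 jejunum samples was read on 1-color Agilent arrays. Per the file headers, the authors obtained the deposited intensity of each spot, background already subtracted, from Feature Extraction 11.0.1.1. The authors' normalized log2 table, made in GeneSpring, supplied gene symbols only. Spots of a probe were averaged in log2 after control spots were left out, and each array's 75th percentile was subtracted. A probe was tested if well above background on every array of 1 or more groups. The 6 comparisons with control used limma 3.58.1 (lmFit and eBayes) on the 2 groups alone, and comparisons of days or doses used 1 model of all arrays. Precision is limited by how many arrays each group had. The members and lists were chosen with earlier results of these data known. Named genes of lists were, in each group, up to 3 called probes of distinct genes with the largest change among probes well above background throughout, and CCL20 and IL17RE were named after their values were seen, to complete counts. Genes most like a member were the 3 with the highest Pearson r among probes above background on all arrays, and 1 of them is not reported here. Alternatives were normexp on median signals (the files hold no mean signal), other scaling, no filter, the methods' t-test, slide, scan day, position or replicate as a block, other samples in the fit, a common floor, and omission of slide 5 or of single arrays. On simulated data with 28171 probes, 39 of 40 changes of 3 log2 units were recovered for 6.7 Gy day 4 against control, and 12 of 40 of 1 log2 unit. For day 12 against control 37 and 32 of 40 of 3 log2 units were recovered at the lower and the higher dose, and 1 and 2 of 40 of 1 log2 unit. No sequences or coordinates were used.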

Additional observations from a re-analysis of the deposited data

Results flagged for a closer look

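Single arrays far from the other 3 of their group were looked for in 60 sets of 4 arrays (5 groups and 12 probes), of which chance alone gives about 1 in 20, and 8 were found. On day 4 after 6.7 Gy, replicate 2 was the low array for all 3 DEFB2L probes, at 5.56, 4.44 and 3.01, and control replicate 2 was low for DEFB2L probe A_01_P1671061, at 4.20. The same 2 arrays had the lowest DEFA6 levels of their groups, 6.81 and 6.98. REG3G probe A_01_P003386 was low on control replicate 4, at -0.66, and on 6.7 Gy day 4 replicate 1, at 1.51. On day 7 after 6.7 Gy, LCN2 probe A_01_P1701011 was low on replicate 1, at -3.27, and probe A_01_P014164 was high on replicate 4, at 4.23.

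Levels that differed between days at 1 dose, by the model of all arrays, were those of LCN15 from day 4 to day 7 (-2.02 after 6.7 Gy and -3.27 after 7.4 Gy) and from day 4 to day 12 (-3.23 and -3.45), PIGR from day 4 to day 7 (1.25 and 1.35), REG3G from day 4 to day 7 after 6.7 Gy (-1.36 by probe A_01_P1736181 and -1.33 by probe A_01_P1736176), and DEFB2L probe A_01_P1671061 from day 4 to day 12 after 7.4 Gy (-4.19).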

How the results depend on the processing

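Counts of called member probes, 3 after 6.7 Gy and 2 after 7.4 Gy on day 4 against control, became 0 and 1 without a filter, 0 and 1 by the methods' t-test, 0 and 0 with slide as a block, 1 and 0 with position as a block and 0 and 1 with the common floor, and the second was 1 with scan day as a block. Between day 7 and day 4 the counts of 4 and 2 became 0 and 1 without a filter, 0 and 0 by the t-test, 2 and 1 with slide as a block, 0 and 1 with the compared groups alone and 0 and 1 without the 4 arrays of slide 5. Between day 12 and day 4 the counts of 1 and 2 became 0 and 0 by the t-test, 0 and 1 with slide as a block and 0 and 0 with the compared groups alone. The second was also 1 without a filter, with scan day as a block and with the common floor, and 0 without slide 5. The causes were not tested. Normexp and the other scaling moved no member count by more than 1.5 times, but with normexp the calls of DEFB2L between day 12 and day 4 after 7.4 Gy and of REG3G probe A_01_P1736176 between day 7 and day 4 after 6.7 Gy were lost while REG3G probe A_01_P1736181 gained a call after 7.4 Gy, on day 12 against day 4. With the other scaling the call lost was that of PIGR between day 7 and day 4 after 6.7 Gy.

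Counts of called list probes were 6, 9, 2 and 1 on day 4 at the lower and higher dose and on day 7 at the lower and higher dose, in that order. They became 0, 0, 0 and 0 without a filter and with slide as a block, 0, 5, 0 and 0 by the t-test and 2, 5, 0 and 0 with the common floor. With scan day as a block the counts of 6, 9 and 1 became 3, 0 and 0, and with position as a block those of day 4 became 1 and 0. On day 7 they were 4 and 2 with normexp and 4 and 4 with all arrays in 1 model. CHI3L1 on day 4 after 7.4 Gy, 1.33 as reported, turned to -0.35 with position as a block, a fit in which position and group cannot be told apart at that dose.

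Replicate numbers were not taken as pairs, since same-numbered samples of different groups correlated at -0.17 to 0.33 in their deviations from group means. For control and 6.7 Gy day 7 the numbers coincide with slides 1 to 4, and there the replicate block is the slide block. With the replicate block the member counts were 1 on day 4 after 6.7 Gy and 1 between day 12 and day 4 after 7.4 Gy, and the list counts were 0, 2, 0 and 0.

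Without single arrays, member counts against control ran from 1 to 2 and from 1 to 3 on day 4 at the lower and the higher dose, and from 0 to 4 on day 12 after 7.4 Gy. Between day 7 and day 4 they ran from 0 to 4 after 6.7 Gy and from 1 to 2 after 7.4 Gy. Between day 12 and day 4 they ran from 0 to 1 and from 0 to 4. On day 12 after 7.4 Gy against day 7 they ran from 0 to 3, and against 6.7 Gy from 0 to 3, where only 7.4 Gy day 12 replicate 1 was left and was assumed to vary like the other groups. List counts ran from 2 to 8 and from 6 to 10 on day 4, from 0 to 1 and from 0 to 4 on day 7, and from 0 to 2 on day 12 after 7.4 Gy. Slide 5's high floor limits what low probes such as LCN15 can show there.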
